A study of Mus musculus with 8 samples.

Results

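Marked GFP cells were compared with marked Thy1.1 cells: regulatory T (Treg) cells that carried the red protein tdTomato (the mark) and reported Foxp3 by either GFP or Thy1.1. The comparison used 4 of the study's 8 libraries, chosen by population, with 2 libraries of marked GFP cells and 2 of marked Thy1.1 cells. It covered the 13989 of 24108 named genes that passed a filter on expression. Every group came from mice with the same engineered loci. One Foxp3 allele carried the diphtheria toxin receptor with GFP (DTR-GFP) and the other carried Thy1.1. A Cre recombinase that tamoxifen activates was under CD4 control (CD4CreER, 1 copy), and 1 copy of the R26 locus held a tdTomato gene that Cre switches on (lsl-tdTomato). Mice were given AVNM (an abbreviation left unexplained in the labels) while fed an amino acid-defined diet. They received tamoxifen to mark CD4 T cells outside the thymus that lacked Foxp3, and diphtheria toxin during the following 3 weeks or so. Chow and a fecal microbiota from specific pathogen-free mice followed, and 12 days later the cells were sorted, each sort done a second time, from mesenteric lymph nodes. The other 4 libraries held unmarked (tdTomato-negative) cells of the same 2 reporters, and they served here to estimate the spread and to set the marked difference beside an unmarked one. The labels give no ages, no numbers of pooled animals and no statement that GFP and Thy1.1 cells came from the same mice. They name the toxin receptor with the GFP allele only, so Thy1.1 cells that expressed Foxp3 may have survived the toxin, which was not tested.

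Treg cells are CD4 T cells that hold back immune responses and depend on the transcription factor Foxp3. Some arise in the thymus, where genes such as Ikzf2 (Helios) and Nrp1 come on. Others arise in the periphery from conventional CD4 T cells, above all in the intestine and the lymph nodes that drain it, in response to microbes and food, and many of these carry the transcription factors Maf and Ahr. Mesenteric lymph nodes are the site where CD4 T cells meet intestinal antigens, divide and take up the receptors that send them to the gut wall. A cell that divides first loads its DNA with the MCM helicase, then copies it, and finally separates the copies on a spindle. Genes of those steps come on in that order under E2F factors and, for mitosis, under complexes that read CHR and CCAAT elements.

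The 4 libraries held between 38085686 and 47908198 counts, and 3 counts, the most that a library at 0 may hide, stood for 0.0614 to 0.0806 CPM, which are counts scaled to a common library size. Such limits cover counting error alone. Values in pairs below are given for GFP libraries 3 and 4 and for Thy1.1 libraries 1 and 2, as the deposited table numbers them. Across tested genes the log2 CPM of both GFP libraries correlated with r = 0.923 and that of both Thy1.1 libraries with r = 0.958, against 0.898 to 0.905 between reporters; genes are not independent replicates, and these values describe the libraries. The GFP pair was the less even one. A count of 0 in one library beside at least 50 in its partner was found for 216 genes in the GFP pair and for 31 in the Thy1.1 pair. Interferon-stimulated genes differed between the libraries within each population: 34 of 35 were higher in GFP library 4 than in GFP library 3 (median log2 difference 1.90), and 35 of 35 were higher in Thy1.1 library 2 than in Thy1.1 library 1 (1.20). In unmarked cells 35 of 35 were likewise higher in the even-numbered library of each reporter (1.58 with GFP and 1.16 with Thy1.1). None of these 35 passed the test between reporters, but 1 was higher and 3 were lower with a replicate block by odd and even numbers. Whether the 2 libraries of a population came from different animals is not stated. The p-values therefore reflect only library-to-library variation, which may be technical.

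Thy1, which encodes the reporter antigen, was at 51.6 and 46.8 CPM in the GFP libraries and at 83.5 and 93.2 CPM in the Thy1.1 libraries (log2 fold change -0.84 ± 0.13, edgeR adjusted p = 0.00712). Foxp3 was at 126 and 141 CPM in the GFP libraries and at 186 and 187 CPM in the Thy1.1 libraries. Both genes were higher in both Thy1.1 libraries, with no overlap, as in 59.0% of all tested genes. Foxp3 was lower by 0.48 ± 0.12 on the log2 scale in GFP cells (edgeR adjusted p = 0.0314). The Thy1 call was lost without Thy1.1 library 2 (edgeR adjusted p = 0.0572), and that of Foxp3 without GFP library 3 (0.0976), Thy1.1 library 1 (0.128) or Thy1.1 library 2 (0.122). The Foxp3 level is uncertain, because its exons overlap those of other genes (Ccdc22 and Flicr) and the locus is engineered on both alleles. Levels of all genes said below to overlap are uncertain too, since the library kit does not mark strand. The T cell gene Cd3e stood at 1374 and 1181 CPM with GFP against 1236 and 1196 CPM with Thy1.1, and Il2ra, the high-affinity interleukin-2 receptor chain of Treg cells, at 631 and 1085 CPM with GFP against 671 and 807 CPM with Thy1.1 (log2 fold change 0.21 ± 0.28, edgeR adjusted p = 0.669). Exons of Cd3e overlap a gene model.

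Markers of other cell types were low, but some differed between the libraries. Counts of called markers are to be read beside all tested genes, of which 8.01% were higher and 6.82% lower with GFP. Of 7 T cell markers, 2 were higher with GFP and 0 lower, and their summed level was 6595 and 5839 CPM with GFP against 5342 and 5304 CPM with Thy1.1. B cell markers summed to 30.6 and 27.0 CPM with GFP and 54.5 and 50.7 CPM with Thy1.1 (0 of 10 higher, 1 lower). Myeloid and dendritic markers summed to 799 and 634 CPM with GFP and 366 and 416 CPM with Thy1.1 (2 of 18, 11.1%, higher and 1, 5.56%, lower, not far from the shares of all tested genes). Most of that sum was Ccr9, Cst3, Cd74 and Bst2, which T cells also express. Of the others, Plac8 was at 29.3 and 63.5 CPM with GFP against 3.83 and 17 CPM with Thy1.1, Itgam at 6.27 and 2.50 CPM against 2.02 and 0.16 CPM, and Lyz2 at 21.9 CPM in GFP library 3 and at most 1.64 CPM in the other 3 libraries. Itgax and Siglech were at 0 in all 4. Without Thy1.1 library 1, 0 T cell, B cell and myeloid markers were called. Erythroid markers summed to 49.2 CPM in GFP library 3, 5.43 CPM in GFP library 4 and 2.67 to 2.88 CPM with Thy1.1. The CD8 and NK list summed to 139 CPM in GFP library 3, of which 116 CPM were Nkg7, and to 46.4 to 58.4 CPM in the other 3 libraries. Markers of gamma-delta T and innate lymphoid cells summed to 190 and 218 CPM with GFP against 29.1 and 38.7 CPM with Thy1.1 (2 of 5 higher), while 2 of their defining genes, Sox13 and Zbtb16, stayed at or below 0.0677 CPM. Plasma cell markers summed to at most 2.26 CPM. Granulocyte and mast cell markers summed to 45.0 and 17.2 CPM with GFP against 11.2 and 10.8 CPM with Thy1.1. Of that, Kit made up 36.6 and 17.1 CPM against 5.13 and 5.17 CPM, and Kit is also in the gamma-delta and innate lymphoid list. Stromal and epithelial markers summed to 158 and 195 CPM with GFP against 229 and 228 CPM with Thy1.1. Most of that was Pecam1 (98.1 and 156 CPM against 185 and 179 CPM) and Epcam (46.7 and 31.4 CPM against 37.7 and 43.5 CPM). The part of such cells in the results was not tested. In bulk libraries, fewer cells of a type and less RNA per cell cannot be told apart.

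Of 13989 genes, 2074 (14.8%) passed the test between marked GFP and marked Thy1.1 cells: 1120 (8.01%) were higher and 954 (6.82%) lower with GFP. Counts of list members below are to be read beside these shares of 8.01% and 6.82%. The threshold was a Benjamini-Hochberg adjusted p of 0.05 in edgeR's quasi-likelihood test, and 4181 genes had an unadjusted p under 0.05. The median log2 fold change was -0.0052 over all tested genes, 0.83 over the higher and -1.01 over the lower genes. A difference of at least 2-fold (log2 of 1) was seen for 439 of the higher and 482 of the lower genes, and of at least 4 on the log2 scale for 45 and 86. All 2074 genes had levels that did not overlap between the reporters, but so had 8253 (59.0%) of all tested genes. Both directions lost most calls without 1 Thy1.1 library: 199 higher and 282 lower genes were left without Thy1.1 library 1, and 209 and 315 without Thy1.1 library 2. The counts were 543 and 851 without GFP library 3 and 975 and 1067 without GFP library 4, and 381 of the 2074 genes kept their call under each of these 4 omissions. Leaving out either unmarked Thy1.1 library gave 701 higher and 759 lower genes. With library totals in place of TMM scaling, 886 genes were higher and 1120 lower.

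**Figure D1:**
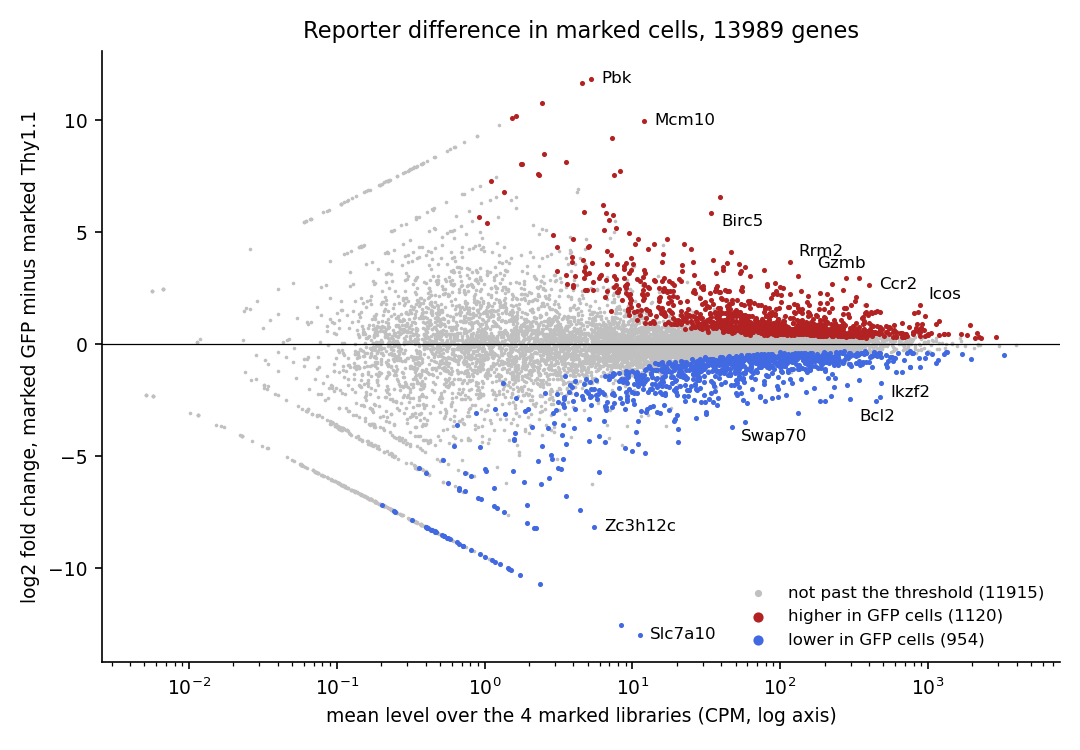
Difference between marked GFP and marked Thy1.1 cells (log2 fold change) against the mean level over the 4 marked libraries (CPM, log axis), 1 point per tested gene, red where higher (1120) and blue where lower (954) with GFP. The diagonal bands at low levels are genes with no count in 1 of the populations, such as Slc7a10, whose fitted size depends on the prior count.

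Among genes of the highest level that differed at least 2-fold were lysosomal ones. Ctsb, which encodes the protease cathepsin B, was at 1485 and 1189 CPM with GFP against 551 and 578 CPM with Thy1.1 (log2 fold change 1.24 ± 0.19, edgeR adjusted p = 0.0062), and Gm2a, a cofactor of ganglioside breakdown, at 795 and 602 CPM with GFP against 252 and 255 CPM with Thy1.1 (1.46 ± 0.23). Both were more than 2-fold higher in each GFP library than in either Thy1.1 library. In the other direction, Txnip, which encodes a thioredoxin-binding protein that restrains glucose uptake, stood at 464 and 543 CPM with GFP against 1024 and 1004 CPM with Thy1.1 (log2 fold change -1.01 ± 0.12, edgeR adjusted p = 0.00251), and Nrip1, a nuclear receptor corepressor, at 287 and 269 CPM with GFP against 592 and 528 CPM with Thy1.1 (log2 fold change -1.01 ± 0.12, edgeR adjusted p = 0.00292). Calls of Ctsb and Gm2a were lost without Thy1.1 library 1 (edgeR adjusted p = 0.0636 and 0.0665) or Thy1.1 library 2 (0.0517 and 0.059). Exons of Ctsb and Txnip overlap those of other genes.

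**Figure D2:**
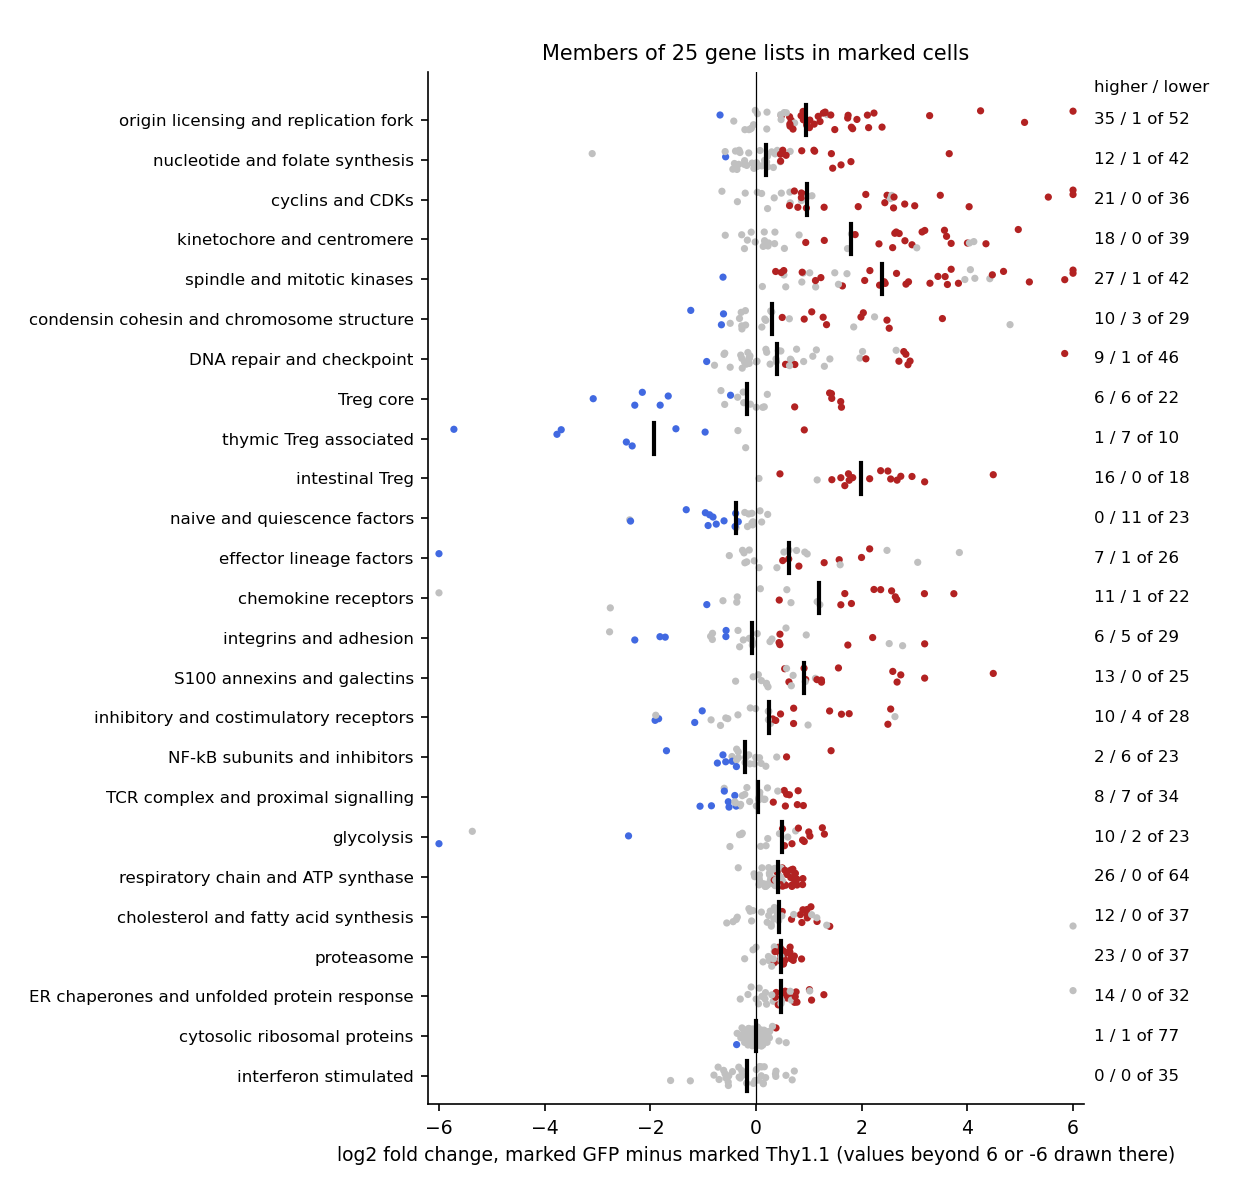
Log2 fold changes (marked GFP minus marked Thy1.1) of the tested members of 25 gene lists, 1 point per gene, red where higher and blue where lower with GFP at an adjusted p under 0.05, grey otherwise, with black bars at the medians and counts at the right. Replication, mitosis and intestinal Treg lists lie to the right, thymic Treg and naive lists to the left, and ribosomal protein and interferon lists around 0.

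DNA replication genes were higher in marked GFP cells. Of 52 tested genes of origin licensing and the replication fork, 35 were higher and 1 lower, with a median log2 fold change of 0.94, beside 8.01% and 6.82% of all tested genes. MCM helicase subunits were called in the same direction: Mcm5 stood at 214 and 187 CPM with GFP against 63.9 and 56.6 CPM with Thy1.1 (log2 fold change 1.74 ± 0.15, edgeR adjusted p = 0.000886). Mcm3 was at 221 and 189.7 CPM with GFP against 81.2 and 64.9 CPM with Thy1.1 (1.49 ± 0.16) and Mcm6 at 520.2 and 595 CPM with GFP against 224 and 226 CPM with Thy1.1 (1.31 ± 0.13). Each of the 3 genes was at least 2-fold higher in both GFP libraries than in both Thy1.1 libraries. Cdc6, which loads the helicase, was at 52.0 and 42.5 CPM with GFP against 3.83 and 1.12 CPM with Thy1.1. Its Thy1.1 libraries differed 3.4-fold, so the log2 fold change of 4.25 ± 0.63 moved to 5.34 and 3.58 without Thy1.1 library 1 and 2, with the call kept. Clspn, which couples the fork to its checkpoint, was at 12.7 and 12.2 CPM with GFP against 0.409 and 0.320 CPM with Thy1.1 (log2 fold change 5.08 ± 0.64, edgeR adjusted p = 0.00311). Lig1, the ligase that joins lagging-strand fragments, was at 92.3 and 100.5 CPM with GFP against 27.2 and 24.1 CPM with Thy1.1 (1.91 ± 0.19). Uhrf1, which carries DNA methylation through replication, was at 121 and 76.6 CPM with GFP against 11.5 and 8.78 CPM with Thy1.1 (log2 fold change 3.29 ± 0.28, edgeR adjusted p = 0.000886). The exception was Orc2, a subunit of the origin recognition complex, at 36.7 and 34.3 CPM with GFP against 60.1 and 53.6 CPM with Thy1.1 (log2 fold change -0.68 ± 0.14, edgeR adjusted p = 0.0195), whose call was lost without GFP library 4 (edgeR adjusted p = 0.0534), Thy1.1 library 1 (0.129) or Thy1.1 library 2 (0.0696). Exons of Lig1 and Orc2 overlap those of other genes. The number of higher replication genes was 22 without GFP library 3, 30 without GFP library 4, and 10 and 11 without Thy1.1 library 1 and 2.

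Of 42 tested genes of nucleotide and folate synthesis, 12 were higher and 1 lower (median 0.18). The higher ones included both subunits of ribonucleotide reductase, the enzyme that makes deoxyribonucleotides. Rrm2, its S-phase subunit, stood at 253 and 179 CPM with GFP against 19.1 and 15.1 CPM with Thy1.1 (log2 fold change 3.66 ± 0.37, edgeR adjusted p = 0.00176), and Rrm1 at 171 and 128 CPM with GFP against 54.4 and 43.5 CPM with Thy1.1 (1.61 ± 0.18). Salvage kinases were also higher, with Tk1 at 53.8 and 39.0 CPM with GFP against 13.6 and 13.1 CPM with Thy1.1 (1.80 ± 0.22) and Dck at 189.8 and 195 CPM with GFP against 86.7 and 93.4 CPM with Thy1.1 (edgeR adjusted p = 0.00181). The only lower member was Rrm2b, the subunit used outside S phase, at 58.4 and 60.4 CPM with GFP against 85.8 and 91.1 CPM with Thy1.1 (log2 fold change -0.57 ± 0.12, edgeR adjusted p = 0.02). Genes of mitochondrial folate metabolism did not pass the test, as with Shmt2 at 109.5 and 120.2 CPM with GFP against 94.7 and 102 CPM with Thy1.1 (edgeR adjusted p = 0.348). The Rrm2b call was lost without GFP library 3 (edgeR adjusted p = 0.055), Thy1.1 library 1 (0.0824) or Thy1.1 library 2 (0.11), and the number of higher genes was 6, 4 and 5 without these and 10 without GFP library 4. Exons of Tk1, Rrm2b and Shmt2 overlap those of other genes.

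Cyclins of S phase and mitosis were higher, while the G1 cyclins Ccnd2 and Ccnd3 were not called. Of 36 tested cyclins, cyclin-dependent kinases (CDKs) and their regulators, 21 were higher and 0 lower (median 0.97). Ccne1, the cyclin that starts S phase, stood at 51.9 and 50.8 CPM with GFP against 9.33 and 9.07 CPM with Thy1.1 (log2 fold change 2.48 ± 0.30, edgeR adjusted p = 0.00278). Cks1b, a CDK subunit, was at 50.5 and 38.1 CPM with GFP against 8.94 and 7.41 CPM with Thy1.1 (2.44 ± 0.25). Ccnb2, a mitotic cyclin, was at 112 and 42.6 CPM with GFP against 0.430 and 1.19 CPM with Thy1.1, the GFP libraries differing 2.6-fold and the Thy1.1 libraries 2.8-fold. Its log2 fold change of 6.59 ± 0.80 (edgeR adjusted p = 0.00278) was 5.67 without GFP library 3, and 5.97 and 7.44 without Thy1.1 library 1 and 2. Ccnd2 stood at 642 and 712 CPM with GFP against 623 and 707 CPM with Thy1.1 (edgeR adjusted p = 0.899) and Ccnd3 at 521 and 471 CPM with GFP against 523 and 744 CPM with Thy1.1 (edgeR adjusted p = 0.307). Levels overlapped between the reporters for Ccnd2, while for Ccnd3 both GFP libraries lay below both Thy1.1 libraries, library 3 of GFP and library 1 of Thy1.1 being nearly equal. Their partner kinase Cdk4 was at 203 and 178 CPM with GFP against 173 and 181 CPM with Thy1.1 (edgeR adjusted p = 0.559). Rb1, which holds E2F factors back, was itself higher at 374 and 372 CPM with GFP against 219 and 232 CPM with Thy1.1 (log2 fold change 0.73 ± 0.09, edgeR adjusted p = 0.00292). The number of higher genes was 15 without GFP library 3, 21 without GFP library 4, and 8 and 7 without Thy1.1 library 1 and 2. Exons of Ccnd2, Ccnd3, Cdk4 and Rb1 overlap those of other genes.

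Of 26 tested CDK inhibitors and p53 targets, 4 (15.4%) were higher and 2 (7.69%) lower, beside 8.01% and 6.82% of all tested genes (median 0.24). The higher ones numbered 2 without Thy1.1 library 2, and the lower ones 1 without any 1 marked library. Cdkn2c, an inhibitor of the G1 kinases, stood at 73.5 and 54.3 CPM with GFP against 14.2 and 11.5 CPM with Thy1.1 (log2 fold change 2.31 ± 0.32, edgeR adjusted p = 0.0044), a call lost without Thy1.1 library 2 (edgeR adjusted p = 0.0502). Gadd45b, a stress gene that NF-kB also induces, was at 127 and 121 CPM with GFP against 42.2 and 53.1 CPM with Thy1.1 (1.38 ± 0.18). The opposite was seen for Cdkn1c (p57), with 0 counts in both GFP libraries against 4.54 and 4.96 CPM in the Thy1.1 libraries and so at least 128-fold lower, a gene whose exons overlap a gene model. Cdkn1b (p27) was at 25.5 and 30.0 CPM with GFP against 35.2 and 27.5 CPM with Thy1.1 (edgeR adjusted p = 0.668).

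Mitosis genes had larger differences than replication genes in the middle of their lists, a comparison given without a test. Of 42 tested spindle and mitotic kinase genes, 27 were higher and 1 lower (median 2.38), and of 39 kinetochore and centromere genes, 18 were higher and 0 lower (median 1.81). Birc5 (survivin), a subunit of the complex that corrects spindle attachments, stood at 82.8 and 51.0 CPM with GFP against 1.49 and 0.823 CPM with Thy1.1 (log2 fold change 5.84 ± 0.51, edgeR adjusted p = 0.000886). Nuf2, which links kinetochores to the spindle, was at 23.4 and 13.2 CPM with GFP against 0.552 and 0.617 CPM with Thy1.1 (log2 fold change 4.96 ± 0.47, edgeR adjusted p = 0.00132). Both genes were below 2 CPM in each Thy1.1 library and above 10 CPM in each GFP library. Racgap1, which acts when the cell splits, was at 108 and 82.0 CPM with GFP against 32.2 and 28.9 CPM with Thy1.1 (1.64 ± 0.19), and Mad2l1, of the spindle checkpoint, at 55.8 and 41.5 CPM with GFP against 10.2 and 16.3 CPM with Thy1.1 (1.88 ± 0.27). Plk1, a kinase that drives entry into mitosis, was at 19.0 and 21.2 CPM with GFP against 4.23 and 3.22 CPM with Thy1.1 (log2 fold change 2.43 ± 0.42, edgeR adjusted p = 0.00937), a call lost without Thy1.1 library 1 (edgeR adjusted p = 0.0694) or Thy1.1 library 2 (0.0856). Pttg1 (securin), which holds sister chromatids together until anaphase, was the lower member at 47.4 and 44.3 CPM with GFP against 66.0 and 75.4 CPM with Thy1.1 (log2 fold change -0.62 ± 0.15, edgeR adjusted p = 0.028). Its call was lost without GFP library 3 (edgeR adjusted p = 0.057), GFP library 4 (0.0793), Thy1.1 library 1 (0.0858) or Thy1.1 library 2 (0.154). Exons of Plk1 overlap a gene model. Without these libraries in the same order, 18, 27, 12 and 12 spindle genes and 9, 16, 2 and 4 kinetochore genes were higher.

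Chromosome structure genes went both ways. Of 29 tested genes, 10 were higher and 3 lower (median 0.30). Ncaph, a condensin subunit, stood at 45.6 and 34.7 CPM with GFP against 3.01 and 3.95 CPM with Thy1.1 (log2 fold change 3.53 ± 0.36, edgeR adjusted p = 0.00176), and Top2a, the topoisomerase that untangles chromosomes, at 56.9 and 81.7 CPM with GFP against 18.2 and 16.7 CPM with Thy1.1 (1.99 ± 0.28). Hmgb2, a chromatin protein of dividing cells, was at 423 and 283 CPM with GFP against 84.5 and 88.3 CPM with Thy1.1 (2.03 ± 0.23). Yet Smc4, the core subunit of the same condensin complex, was lower at 410.0 and 391 CPM with GFP against 885 and 999 CPM with Thy1.1 (log2 fold change -1.23 ± 0.11, edgeR adjusted p = 0.000993), with no overlap, as in all 2074 called genes. Of 46 tested genes of DNA repair and the damage checkpoint, 9 were higher and 1 lower (median 0.40). Exons of Top2a overlap a gene model. Higher chromosome structure genes numbered 7, 11, 6 and 5, and higher repair genes 5, 6, 2 and 2, without GFP library 3, GFP library 4, Thy1.1 library 1 and Thy1.1 library 2. Lower chromosome structure genes numbered 2, 4, 1 and 1 without these libraries and 1 without either unmarked Thy1.1 library.

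Promoters of the replication and mitosis genes differed in the short elements they held. The sequences come from RefSeq (GRCm38.p6) and span 250 bases before to 50 after the annotated start. Elements in capitals are the E2F-type words TTTCCCGC, TTTGGCGC and TTTCGCGC, the CHR word TTTGAA and the NF-Y word CCAAT, each searched on both strands, so that some appear as their reverse complement. Promoters of 2 replication genes, Cdc6 (chr11:98907901-98908200, plus strand, with 1 E2F-type word) and Mcm5 (chr8:75109259-75109558, plus strand, with 2 overlapping E2F-type words and 3 CCAAT words), are set beside those of 2 mitosis genes, Ccnb2 (chr9:70421505-70421804, minus strand, with 2 CHR and 3 CCAAT words) and Plk1 (chr7:122159185-122159484, plus strand, with 1 of each), to show the elements where they lie.
Cdc6: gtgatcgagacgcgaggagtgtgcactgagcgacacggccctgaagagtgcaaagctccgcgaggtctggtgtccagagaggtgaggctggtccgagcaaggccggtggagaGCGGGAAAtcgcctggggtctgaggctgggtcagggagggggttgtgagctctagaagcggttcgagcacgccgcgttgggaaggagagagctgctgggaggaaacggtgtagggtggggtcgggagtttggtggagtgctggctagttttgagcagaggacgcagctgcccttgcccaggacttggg
Mcm5: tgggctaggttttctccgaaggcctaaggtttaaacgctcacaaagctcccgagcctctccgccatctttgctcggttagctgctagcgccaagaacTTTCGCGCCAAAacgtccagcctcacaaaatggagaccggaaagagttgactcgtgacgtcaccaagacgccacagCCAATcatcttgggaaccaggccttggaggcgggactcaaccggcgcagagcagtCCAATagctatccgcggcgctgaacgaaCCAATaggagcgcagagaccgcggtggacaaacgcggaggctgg
Ccnb2: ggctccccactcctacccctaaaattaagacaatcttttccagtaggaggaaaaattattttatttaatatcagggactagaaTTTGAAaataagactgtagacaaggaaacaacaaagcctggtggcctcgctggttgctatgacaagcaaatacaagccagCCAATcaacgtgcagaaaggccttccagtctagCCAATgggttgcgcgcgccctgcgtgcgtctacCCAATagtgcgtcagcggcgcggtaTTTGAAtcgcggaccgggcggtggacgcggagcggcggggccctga
Plk1: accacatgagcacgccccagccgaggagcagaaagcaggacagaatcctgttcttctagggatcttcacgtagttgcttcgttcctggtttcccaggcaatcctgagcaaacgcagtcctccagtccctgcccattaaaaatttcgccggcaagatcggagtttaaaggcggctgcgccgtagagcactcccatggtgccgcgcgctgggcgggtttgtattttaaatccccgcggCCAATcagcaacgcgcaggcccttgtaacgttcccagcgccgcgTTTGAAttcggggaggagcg

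In the replication list, 36.4% of 55 promoters held an E2F-type word, against 1.84% of all 32851 mouse promoters in the table. For the spindle list it was 5.26% of 38 promoters and for the kinetochore list 7.89% of 38. The CHR word was found in 71.1% of spindle promoters and 42.1% of kinetochore promoters, against 16.4% of replication promoters and 17.9% of all. CCAAT occurred in 68.4%, 71.1% and 54.5% of them, and in 37.4% of all. Promoters were found for 43 of 52 replication, 36 of 42 spindle and 34 of 39 kinetochore genes. The naive factors, lower in GFP cells, had E2F-type words in 0.0% of 32 promoters, CHR in 18.8% and CCAAT in 34.4%. Tested genes with a promoter were 79.7% of all tested ones, beside 82.7% in the replication, 85.7% in the spindle and 87.2% in the kinetochore list. Promoters of all tested genes held E2F-type words in 3.30%, CHR in 12.6% and CCAAT in 37.9%. The CHR share of the replication list thus lay below that of all promoters in the table but above that of tested genes. A match is a run of letters and says nothing of binding.

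**Figure D3:**
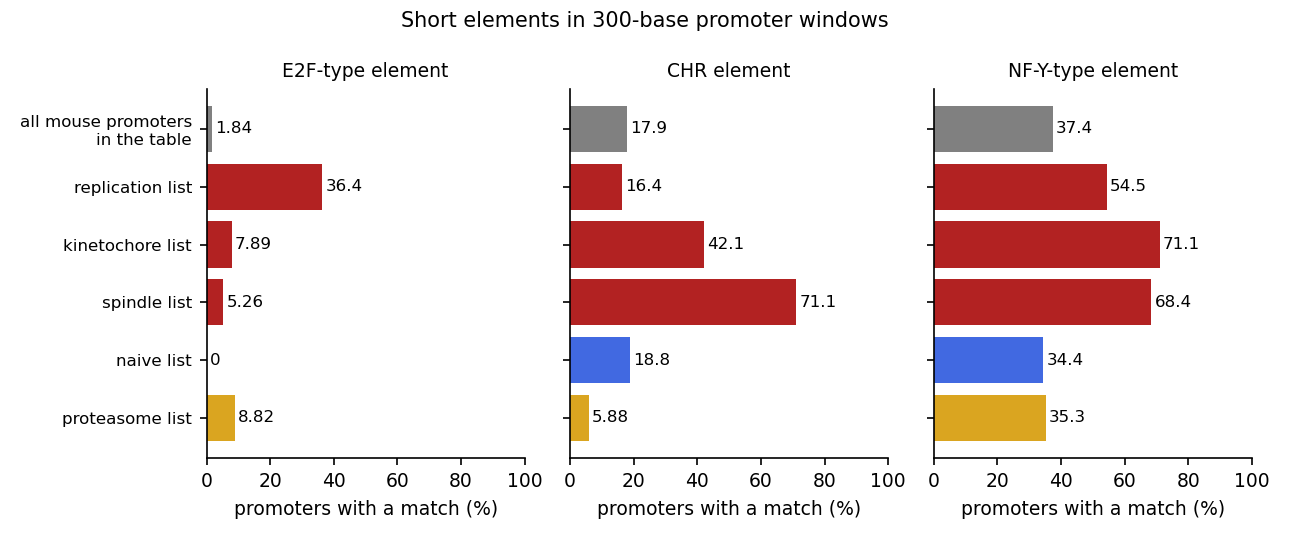
Share of promoters (%) with at least 1 match to the E2F-type, CHR or NF-Y (CCAAT) words, for all 32851 promoters in the table (grey), 3 lists that were higher with GFP (red), the naive list (blue) and the proteasome list (yellow). E2F-type words peak in the replication list (36.4%) and CHR words in the spindle list (71.1%).

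Genes that mark Treg cells were divided. Of 22 tested Treg core genes, 6 were higher and 6 lower (median -0.17). Higher were Ctla4, the inhibitory receptor through which Treg cells strip costimulation from other cells, at 1264 and 1072 CPM with GFP against 429 and 460.3 CPM with Thy1.1 (log2 fold change 1.39 ± 0.15, edgeR adjusted p = 0.00193), and Nt5e (CD73), which makes adenosine, at 1115 and 1143 CPM with GFP against 706 and 654 CPM with Thy1.1 (log2 fold change 0.73 ± 0.08, edgeR adjusted p = 0.0021). Capg, an actin-capping protein, was at 1282 and 1217 CPM with GFP against 444 and 485 CPM with Thy1.1 (1.43 ± 0.14). All 3 were abundant in both populations, and their levels did not overlap between them, as for all 2074 called and 59.0% of all tested genes. Lower were Lrrc32 (GARP), which tethers latent TGF-beta, at 72.8 and 177 CPM with GFP against 425 and 453 CPM with Thy1.1 (log2 fold change -1.81 ± 0.39, edgeR adjusted p = 0.0211), and Itgb8, which activates it, at 9.95 and 6.29 CPM with GFP against 41.4 and 38.4 CPM with Thy1.1 (log2 fold change -2.29 ± 0.52, edgeR adjusted p = 0.0235). The GFP libraries differed 2.4-fold in Lrrc32, so that it was at -2.60 without GFP library 4, and its call was lost without Thy1.1 library 1 (edgeR adjusted p = 0.0879) or Thy1.1 library 2 (0.0895). The Itgb8 call was lost without GFP library 3 (edgeR adjusted p = 0.0513), GFP library 4 (0.0854), Thy1.1 library 1 (0.104) or Thy1.1 library 2 (0.0876). The number of lower core genes was 6, 5, 1 and 1 without these libraries, and 4 without either unmarked Thy1.1 library. The number of higher ones was 6, 6, 4 and 5.

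Thymic Treg genes were lower and intestinal Treg genes higher in marked GFP cells. Of 10 thymic genes, 7 were lower and 1 higher (median -1.93), and 6 were lower without any 1 of the 8 libraries. Ikzf2 stood at 183 and 128 CPM with GFP against 728 and 847 CPM with Thy1.1, Nrp1 at 90.6 and 94.4 CPM with GFP against 578 and 435 CPM with Thy1.1 and Swap70, which reorganizes actin, at 7.99 and 5.64 CPM with GFP against 95.1 and 80.8 CPM with Thy1.1. Each GFP library lay below each Thy1.1 library by more than 3-fold for these 3 genes, with log2 fold changes of -2.34, -2.45 and -3.69. Gata1, better known for red cell development, was at 3.23 and 2.34 CPM with GFP against 38.3 and 37.7 CPM with Thy1.1 (log2 fold change -3.77 ± 0.30, edgeR adjusted p = 0.000842). The higher member was Tnfrsf1b, the TNF receptor that supports Treg cells, at 1169 and 1235 CPM with GFP against 641 and 634 CPM with Thy1.1 (log2 fold change 0.91 ± 0.08, edgeR adjusted p = 0.000886). Within the Ikaros family of zinc finger factors the members parted. Ikzf3 (Aiolos) was higher at 608 and 677 CPM with GFP against 216 and 260.1 CPM with Thy1.1 (log2 fold change 1.43 ± 0.17, edgeR adjusted p = 0.00278), Ikzf4 (Eos) was lower at 12.4 and 43.4 CPM with GFP against 247 and 224 CPM with Thy1.1 (log2 fold change -3.08 ± 0.50, edgeR adjusted p = 0.00763), and Ikzf1 (Ikaros) was at 321 and 305 CPM with GFP against 398 and 342 CPM with Thy1.1 (edgeR adjusted p = 0.13). The GFP libraries differed 3.5-fold in Ikzf4, whose log2 fold change was -2.49 without GFP library 3 and -4.26 without GFP library 4, with the call kept. Exons of Ikzf2, Ikzf4, Swap70 and Nrp1 overlap gene models or a miRNA gene.

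Of 18 tested intestinal Treg genes, 16 were higher and 0 lower (median 1.99), with 14, 16, 11 and 12 higher without GFP library 3, GFP library 4, Thy1.1 library 1 and Thy1.1 library 2. Maf stood at 313 and 269 CPM with GFP against 79.5 and 84.1 CPM with Thy1.1, Ahr at 456 and 475 CPM with GFP against 136 and 141 CPM with Thy1.1 and Prdm1 (Blimp-1), a factor of effector differentiation, at 229 and 277 CPM with GFP against 56.5 and 57.3 CPM with Thy1.1. Both GFP libraries were at least 3-fold above both Thy1.1 libraries for these 3 factors (1.83 ± 0.25, 1.75 ± 0.16 and 2.15 ± 0.17). Among surface receptors, Icos, a costimulator, was at 1408 and 1319.9 CPM with GFP against 379 and 425 CPM with Thy1.1 (1.76 ± 0.19), and Havcr2 (TIM-3) at 23.0 and 21.3 CPM with GFP against 3.89 and 3.95 CPM with Thy1.1 (log2 fold change 2.50 ± 0.28, edgeR adjusted p = 0.00233). Gzmb, which encodes granzyme B, was at 860.3 and 347 CPM with GFP against 82.2 and 73.8 CPM with Thy1.1 (log2 fold change 2.95 ± 0.48, edgeR adjusted p = 0.00748). It moved to 2.10 without GFP library 3 and lost its call without Thy1.1 library 1 (edgeR adjusted p = 0.0703) or Thy1.1 library 2 (0.0696). The anti-inflammatory cytokine gene Il10 was at 202 and 113 CPM with GFP against 34.9 and 26.6 CPM with Thy1.1, called at 2.36 ± 0.43 but not without Thy1.1 library 1 (edgeR adjusted p = 0.0749) or Thy1.1 library 2 (0.0938). Exons of Maf and Ahr overlap gene models.

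**Figure D4:**
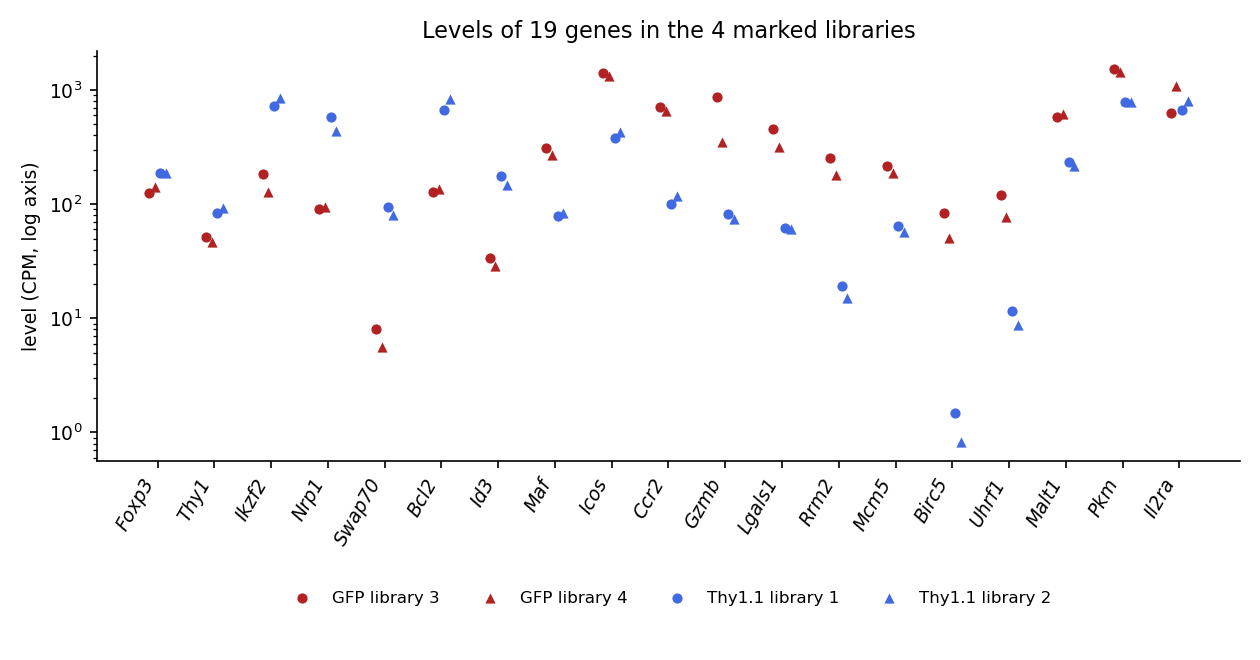
Levels of 19 genes (CPM, log axis) in GFP libraries 3 and 4 (red) and Thy1.1 libraries 1 and 2 (blue), 1 symbol per library. Ikzf2, Nrp1, Swap70, Bcl2 and Id3 lie lower and Maf through Pkm higher in both GFP libraries, while Il2ra overlaps.

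Genes of S100 proteins, annexins and galectins, which mark activated and tissue T cells, were higher in 13 of 25 tested cases and lower in 0 (median 0.91). Lgals1 (galectin-1) stood at 457 and 316 CPM with GFP against 61.3 and 60.1 CPM with Thy1.1 (log2 fold change 2.67 ± 0.27, edgeR adjusted p = 0.00171), S100a6 at 197 and 126 CPM with GFP against 25.3 and 23.0 CPM with Thy1.1 (log2 fold change 2.74 ± 0.38, edgeR adjusted p = 0.00428) and Anxa2 at 179 and 102 CPM with GFP against 27.1 and 19.6 CPM with Thy1.1 (2.59 ± 0.30). Vim (vimentin), an intermediate filament, was at 563 and 433 CPM with GFP against 222 and 226 CPM with Thy1.1 (1.15 ± 0.15). In S100a6 and Anxa2 the GFP libraries differed by at least 1.5-fold, library 3 being higher, and both still lay over 3-fold above the Thy1.1 libraries. The number called higher was 7 without GFP library 3, 15 without GFP library 4, and 5 and 6 without Thy1.1 library 1 and 2. Exons of Anxa2 overlap a gene model.

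Suppressor effector genes did not move as 1 group. Of 20 tested genes, 7 were higher and 2 lower (median 0.43). Furin, the protease that processes TGF-beta, stood at 373 and 463 CPM with GFP against 133 and 142 CPM with Thy1.1 (log2 fold change 1.60 ± 0.12, edgeR adjusted p = 0.000699), and Fgl2, a secreted suppressor, at 219 and 231 CPM with GFP against 79.5 and 86.6 CPM with Thy1.1 (1.44 ± 0.17). Ebi3, a subunit of interleukin-35, was lower at 9.88 and 10.1 CPM with GFP against 30.8 and 40.8 CPM with Thy1.1 (log2 fold change -1.84 ± 0.23, edgeR adjusted p = 0.00309). Tgfb1 was at 195 and 176 CPM with GFP against 168 and 170.4 CPM with Thy1.1 (edgeR adjusted p = 0.391) and Entpd1 (CD39), which works ahead of CD73, at 121 and 99.6 CPM with GFP against 108 and 94.2 CPM with Thy1.1 (edgeR adjusted p = 0.629). Of 19 tested helper cytokine genes, 4 were higher and 1 lower (median -0.10). Csf1, a macrophage growth factor, was at 138 and 108 CPM with GFP against 56.7 and 44.2 CPM with Thy1.1 (log2 fold change 1.29 ± 0.21, edgeR adjusted p = 0.00723), and Il4 at 34.2 and 31.8 CPM with GFP against 10.4 and 7.50 CPM with Thy1.1 (log2 fold change 1.88 ± 0.36, edgeR adjusted p = 0.0133). Csf1 lost its call without Thy1.1 library 2 (edgeR adjusted p = 0.0749), and Il4 without GFP library 3 (0.0503), Thy1.1 library 1 (0.0798) or Thy1.1 library 2 (0.119). Ifng was low, at 2.39 and 0 CPM with GFP against 1.53 and 2.29 CPM with Thy1.1 (edgeR adjusted p = 0.878). Higher suppressor genes numbered 6, 8, 4 and 4, and higher cytokine genes 2, 3, 1 and 1, without GFP library 3, GFP library 4, Thy1.1 library 1 and Thy1.1 library 2. Exons of Ebi3, Furin and Ifng overlap gene models.

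Of 22 tested chemokine and related receptors, 11 were higher and 1 lower (median 1.18), the lower one being Ccr7, which brings T cells into lymph nodes. Cxcr3, which follows interferon-induced chemokines, did not pass the test at 148 and 141 CPM with GFP against 54.5 and 75.1 CPM with Thy1.1 (edgeR adjusted p = 0.106). Ccr2, which follows monocyte chemokines, stood at 715 and 653 CPM with GFP against 101 and 119 CPM with Thy1.1 (log2 fold change 2.64 ± 0.23, edgeR adjusted p = 0.00098). Ltb4r1, the leukotriene B4 receptor, was at 70.6 and 59.5 CPM with GFP against 4.75 and 4.96 CPM with Thy1.1 (log2 fold change 3.74 ± 0.41, edgeR adjusted p = 0.0021), a gap of over 10-fold in every pair of libraries. Gpr15, which guides T cells to the colon, was at 199 and 148 CPM with GFP against 55.4 and 52.9 CPM with Thy1.1 (1.68 ± 0.19), and Ccr4, a skin and tissue receptor, at 177 and 284 CPM with GFP against 40.1 and 49.8 CPM with Thy1.1 (2.36 ± 0.25). Ccr7 was at 207 and 269.7 CPM with GFP against 438 and 470.1 CPM with Thy1.1 (log2 fold change -0.93 ± 0.12, edgeR adjusted p = 0.00374). S1pr1, the receptor for exit from lymph nodes, stood at 379.9 and 325 CPM with GFP against 469 and 439 CPM with Thy1.1 (edgeR adjusted p = 0.066). The number of higher receptors was 9 without GFP library 3, 10 without GFP library 4, and 6 and 7 without Thy1.1 library 1 and 2. Exons of Gpr15 overlap those of Cpox.

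Of 29 tested integrin and adhesion genes, 6 were higher and 5 lower (median -0.07). The chains of gut integrins moved apart: Itgb7, shared by the gut homing and the epithelial integrin, stood at 1493 and 1465 CPM with GFP against 1112 and 1074 CPM with Thy1.1 (log2 fold change 0.44 ± 0.06, edgeR adjusted p = 0.00484) and Itgae (CD103), its epithelial partner, at 651 and 611 CPM with GFP against 486 and 436 CPM with Thy1.1 (0.45 ± 0.09). Itga4, its gut homing partner, was lower at 332 and 323 CPM with GFP against 491 and 479 CPM with Thy1.1 (log2 fold change -0.57 ± 0.12, edgeR adjusted p = 0.0179). These differences were under 1.5-fold and their calls hinged on single libraries. Itgb7 lost its call without Thy1.1 library 1 (edgeR adjusted p = 0.056) or Thy1.1 library 2 (0.0712). Itgae lost it without GFP library 3 (edgeR adjusted p = 0.0742), Thy1.1 library 1 (0.0677) or Thy1.1 library 2 (0.143), and Itga4 without GFP library 4 (0.050), Thy1.1 library 1 (0.0864) or Thy1.1 library 2 (0.0712). Higher genes of this list numbered 2, 3, 0 and 1, and lower ones 3, 4, 2 and 1, without GFP library 3, GFP library 4, Thy1.1 library 1 and Thy1.1 library 2, and 4 were higher without either unmarked Thy1.1 library. Exons of Itga4 overlap those of Cerkl.

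Transcription factors of naive and resting T cells were lower. Of 23 tested genes, 0 were higher and 11 lower (median -0.38). Id3, which blocks E proteins and holds back effector fate, stood at 33.7 and 28.7 CPM with GFP against 176 and 148 CPM with Thy1.1 (log2 fold change -2.37 ± 0.14, edgeR adjusted p = 0.000626), and Bach2, which represses effector genes, at 116 and 142 CPM with GFP against 326 and 317 CPM with Thy1.1 (log2 fold change -1.32 ± 0.12, edgeR adjusted p = 0.000977). Lef1 was at 277 and 253 CPM with GFP against 483 and 448 CPM with Thy1.1 (-0.81 ± 0.09), Satb1, a chromatin organizer, at 214 and 197 CPM with GFP against 385 and 415 CPM with Thy1.1 (-0.96 ± 0.10), and Klf3 at 239.7 and 181 CPM with GFP against 392 and 381 CPM with Thy1.1 (-0.88 ± 0.13). Every GFP library was below every Thy1.1 library for these 5 genes, but all 2074 called and 59.0% of all tested genes lacked overlap. Foxo1, a central factor of the resting state, was nearly level at 592 and 591 CPM with GFP against 564 and 558 CPM with Thy1.1 (edgeR adjusted p = 0.574), and Ets1 stood at 1912 and 1976 CPM with GFP against 2165 and 2181 CPM with Thy1.1 (edgeR adjusted p = 0.192). The number of lower factors was 8 without GFP library 3, 11 without GFP library 4, and 5 and 6 without Thy1.1 library 1 and 2. Exons of Bach2, Lef1, Satb1, Klf3 and Foxo1 overlap antisense genes or gene models.

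Of 26 tested lineage and effector factors, 7 were higher and 1 lower (median 0.62). Rora, a factor of interleukin-17 and tissue lineages, stood at 249 and 251 CPM with GFP against 93.9 and 111 CPM with Thy1.1 (log2 fold change 1.29 ± 0.18, edgeR adjusted p = 0.00484), a call lost without Thy1.1 library 1 (edgeR adjusted p = 0.0554). The lower factor was Eomes, of cytotoxic lineages, with 0 and 1 counts in the GFP libraries against 39 and 63 in the Thy1.1 libraries (edgeR adjusted p = 0.018), a call lost without Thy1.1 library 1 (edgeR adjusted p = 0.0633) or Thy1.1 library 2 (0.0828). T-bet and Gata3, factors of the type 1 and type 2 lineages, did not pass the test. Tbx21 (T-bet) was at 18.3 and 19.9 CPM with GFP against 10.0 and 9.46 CPM with Thy1.1 (edgeR adjusted p = 0.0853), with no overlap, as in 59.0% of all tested genes. Gata3 was at 416 and 229.7 CPM with GFP against 219.8 and 228 CPM with Thy1.1 (edgeR adjusted p = 0.171), raised in GFP library 3 alone. Bcl6, of the follicular lineage, stood at 18.7 and 29.1 CPM with GFP against 29.3 and 26.5 CPM with Thy1.1 (edgeR adjusted p = 0.612). Of 23 tested BATF, IRF and AP-1 genes, 4 (17.4%) were higher and 2 (8.7%) lower, beside 8.01% and 6.82% of all tested genes (median 0.04). Among the higher ones was Irf4, a factor that follows receptor strength, at 67.3 and 142 CPM with GFP against 23.6 and 35.0 CPM with Thy1.1 (log2 fold change 1.84 ± 0.35, edgeR adjusted p = 0.0137). It was at 1.19 without GFP library 4 and lost its call without Thy1.1 library 1 (edgeR adjusted p = 0.119) or Thy1.1 library 2 (0.0563). Higher effector factors numbered 5, 6, 1 and 2, and higher BATF, IRF and AP-1 genes 2, 4, 1 and 0, without GFP library 3, GFP library 4, Thy1.1 library 1 and Thy1.1 library 2. Exons of Rora, Eomes, Gata3 and Bcl6 overlap gene models.

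Of 34 tested cytokine receptor genes, 2 (5.88%) were higher, beside 8.01% of all tested genes, and 6 (17.6%) lower, beside 6.82% (median -0.10). The higher Il1r1, the interleukin-1 receptor, stood at 98.9 and 95.0 CPM with GFP against 9.43 and 6.77 CPM with Thy1.1 (log2 fold change 3.58 ± 0.41, edgeR adjusted p = 0.00244), a gap of 10-fold or more in each pair of libraries. Lower were Il21r at 243 and 256 CPM with GFP against 494 and 434 CPM with Thy1.1 (log2 fold change -0.90 ± 0.10, edgeR adjusted p = 0.00193), the interferon-gamma receptor chain Ifngr2 at 28.6 and 22.6 CPM with GFP against 60.2 and 70.6 CPM with Thy1.1 (log2 fold change -1.35 ± 0.18, edgeR adjusted p = 0.00351) and the TGF-beta receptor chain Tgfbr2 at 218 and 250.2 CPM with GFP against 459.8 and 369.5 CPM with Thy1.1 (log2 fold change -0.83 ± 0.12, edgeR adjusted p = 0.00553). Both GFP libraries lay below both Thy1.1 libraries for each of the 3 receptors, but all 2074 called and 59.0% of all tested genes lacked overlap. The interleukin-2 receptor chain Il2rb was at 848 and 964 CPM with GFP against 1142 and 1164 CPM with Thy1.1 (edgeR adjusted p = 0.112) and Il7r at 176 and 245 CPM with GFP against 205 and 299 CPM with Thy1.1 (edgeR adjusted p = 0.699). Of 20 tested STAT and SOCS genes, 1 was higher and 3 lower (median -0.22). Lower cytokine receptors numbered 6, 10, 4 and 3, and lower STAT and SOCS genes 0, 5, 0 and 0, without GFP library 3, GFP library 4, Thy1.1 library 1 and Thy1.1 library 2, and the latter 0 without either unmarked Thy1.1 library.

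Inhibitory and costimulatory receptors included members of both directions. Of 28 tested genes, 10 were higher and 4 lower (median 0.24). Lag3, an inhibitory receptor for MHC class II, stood at 169 and 171 CPM with GFP against 27.9 and 30.1 CPM with Thy1.1 (log2 fold change 2.55 ± 0.22, edgeR adjusted p = 0.000886). Tigit, which competes for CD155, was at 149.9 and 106 CPM with GFP against 39.5 and 43.8 CPM with Thy1.1 (log2 fold change 1.62 ± 0.29, edgeR adjusted p = 0.0105), while other receptors for the same ligand were lower: Cd96 was at 108 and 88.0 CPM with GFP against 359 and 376 CPM with Thy1.1 (log2 fold change -1.91 ± 0.16, edgeR adjusted p = 0.000842) and Cd226 at 63.9 and 70.3 CPM with GFP against 127 and 144 CPM with Thy1.1 (log2 fold change -1.02 ± 0.12, edgeR adjusted p = 0.00278). The levels of the 3 CD155 receptors did not overlap between the reporters, as for all 2074 called and 59.0% of all tested genes. Pdcd1 (PD-1) stood at 189 and 167 CPM with GFP against 157 and 143 CPM with Thy1.1 (edgeR adjusted p = 0.321). Tigit lost its call without Thy1.1 library 1 (edgeR adjusted p = 0.0975) or Thy1.1 library 2 (0.073). Of 27 tested TNF receptor and ligand genes, 2 (7.41%) were higher and 6 (22.2%) lower, beside 8.01% and 6.82% of all tested genes (median -0.40). Among the lower ones were the death receptor Fas at 35.6 and 37.3 CPM with GFP against 69.2 and 74.9 CPM with Thy1.1 (-0.98 ± 0.12) and the lymphotoxin chain Ltb at 641 and 732 CPM with GFP against 1007 and 1122 CPM with Thy1.1 (-0.63 ± 0.09). Tnfrsf18 (GITR) was at 375 and 319 CPM with GFP against 366 and 381 CPM with Thy1.1 (edgeR adjusted p = 0.555). Higher inhibitory and costimulatory receptors numbered 6, 9, 4 and 5 without GFP library 3, GFP library 4, Thy1.1 library 1 and Thy1.1 library 2, and 6 without either unmarked Thy1.1 library. Lower TNF family genes numbered 8, 6, 3 and 3 without the marked libraries in that order. Exons of Tnfrsf18 overlap a gene model.

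Antigen receptor signalling genes were called in both directions. Of 34 tested genes of the T cell receptor complex and its first steps, 8 were higher and 7 lower (median 0.03). Ubash3a, a phosphatase that dampens the receptor, stood at 181 and 199 CPM with GFP against 345 and 337 CPM with Thy1.1 (log2 fold change -0.84 ± 0.09, edgeR adjusted p = 0.00207), and the adaptor Sh2d2a at 623 and 702 CPM with GFP against 371 and 392 CPM with Thy1.1 (log2 fold change 0.80 ± 0.09, edgeR adjusted p = 0.00207). Of 23 tested NF-kB genes, 2 (8.7%) were higher and 6 (26.1%) lower, beside 8.01% and 6.82% of all tested genes (median -0.21). Malt1, the protease that links the receptor to NF-kB, was at 586 and 614 CPM with GFP against 233 and 215 CPM with Thy1.1 (log2 fold change 1.42 ± 0.10, edgeR adjusted p = 0.000626), while Rel, the NF-kB subunit that Treg cells need, was at 15.2 and 13.9 CPM with GFP against 52.2 and 41.9 CPM with Thy1.1 (log2 fold change -1.69 ± 0.23, edgeR adjusted p = 0.00387) and the kinase Ikbkb at 209 and 242 CPM with GFP against 352 and 344 CPM with Thy1.1 (-0.63 ± 0.09). For each of the 5 genes named so far both GFP libraries lay on one side of both Thy1.1 libraries, as for all 2074 called and 59.0% of all tested genes. The subunit Rela was at 226 and 204 CPM with GFP against 222 and 217 CPM with Thy1.1 (edgeR adjusted p = 0.915) and Nfkb1 at 195 and 212 CPM with GFP against 188 and 192 CPM with Thy1.1 (edgeR adjusted p = 0.641). Of 11 tested NFAT and NR4A genes, 2 were higher and 1 lower (median -0.18), with Egr1, an early response gene, at 450.1 and 406 CPM with GFP against 237 and 213 CPM with Thy1.1 (0.93 ± 0.11) and Nr4a1, a reporter of receptor strength, at 109 and 131 CPM with GFP against 157 and 117 CPM with Thy1.1 (edgeR adjusted p = 0.506). Higher and lower receptor genes numbered 7 and 5 without GFP library 3, 8 and 7 without GFP library 4, 2 and 1 without Thy1.1 library 1, and 3 and 3 without Thy1.1 library 2. Lower NF-kB genes numbered 4, 5, 2 and 2 without these. Of 27 genes that handling induces, 3 (11.1%) were higher and 1 (3.7%) lower, beside 8.01% and 6.82% of all tested genes (median -0.08).

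Glycolysis genes were higher, and the lactate dehydrogenase subunits moved in opposite directions. Of 23 tested genes, 10 were higher and 2 lower (median 0.50). Ldha, the subunit that favours lactate, stood at 1650.5 and 1554 CPM with GFP against 801 and 778 CPM with Thy1.1 (log2 fold change 1.02 ± 0.10, edgeR adjusted p = 0.0014), whereas Ldhb, the subunit that favours pyruvate, was at 13.5 and 10.4 CPM with GFP against 60.8 and 66.4 CPM with Thy1.1 (log2 fold change -2.41 ± 0.18, edgeR adjusted p = 0.000699). Tpi1 was at 242 and 207 CPM with GFP against 92.8 and 90.7 CPM with Thy1.1 (1.29 ± 0.17) and Pkm at 1516 and 1446 CPM with GFP against 792 and 781 CPM with Thy1.1 (0.91 ± 0.10). Each GFP library lay at least 1.8-fold above each Thy1.1 library for Ldha and Pkm. The other lower member was Eno2, an enolase of nerve cells, with 0 and 1 counts in the GFP libraries against 193 and 166 in the Thy1.1 libraries (edgeR adjusted p = 0.00573). Outside this list, Pdk1, which keeps pyruvate out of mitochondria, was lower at 50.2 and 59.2 CPM with GFP against 99.4 and 96.6 CPM with Thy1.1 (log2 fold change -0.84 ± 0.12, edgeR adjusted p = 0.00537). Higher glycolysis genes numbered 10, 10, 4 and 3 without GFP library 3, GFP library 4, Thy1.1 library 1 and Thy1.1 library 2. Exons of Tpi1 and Pkm overlap those of other genes.

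Many genes of the respiratory chain and the proteasome were slightly higher. Of 64 tested respiratory chain and ATP synthase genes, 26 were higher, 0 lower and 61 had a positive log2 fold change (median 0.42). Of 37 proteasome genes, 23 were higher and 0 lower (median 0.47). Cox5a, of cytochrome oxidase, stood at 205 and 168 CPM with GFP against 96.7 and 105 CPM with Thy1.1 (0.89 ± 0.14), and the proteasome ATPase Psmc5 at 228 and 205 CPM with GFP against 131 and 135 CPM with Thy1.1 (0.70 ± 0.10). These are differences of less than 2-fold, and the counts hinged on single libraries. Without GFP library 3, GFP library 4, Thy1.1 library 1 and Thy1.1 library 2, 5, 21, 0 and 0 respiratory genes and 7, 19, 0 and 2 proteasome genes were higher. Respiratory genes were higher in 13 cases without either unmarked Thy1.1 library, and proteasome genes in 10 and 11 cases without unmarked Thy1.1 library 1 and 2. With library totals for scaling the counts were 17 and 15. Exons of Cox5a overlap a gene model. By contrast, of 77 tested cytosolic ribosomal protein genes, 1 was higher and 1 lower (median 0.00), and neither was called without either marked Thy1.1 library.

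Of 37 tested genes of cholesterol and fatty acid synthesis, 12 were higher and 0 lower (median 0.43). Fdps, which makes farnesyl diphosphate on the way to cholesterol, stood at 83.9 and 77.0 CPM with GFP against 36.9 and 35.3 CPM with Thy1.1 (log2 fold change 1.16 ± 0.15, edgeR adjusted p = 0.00332). Abca1, which exports cholesterol and is not in this list, was lower at 10.3 and 8.25 CPM with GFP against 42.1 and 35.4 CPM with Thy1.1 (log2 fold change -2.06 ± 0.21, edgeR adjusted p = 0.00181). Of 32 tested ER chaperone and unfolded protein response genes, 14 were higher and 0 lower (median 0.48), with Manf, a secreted ER stress protein, at 124 and 128 CPM with GFP against 61.4 and 63.8 CPM with Thy1.1 (log2 fold change 1.01 ± 0.11, edgeR adjusted p = 0.00207) and Hspa5 (BiP), the chief chaperone, at 822 and 1002 CPM with GFP against 713 and 742 CPM with Thy1.1 (edgeR adjusted p = 0.0685). Higher sterol genes numbered 6, 12, 2 and 2, and higher ER genes 10, 11, 3 and 3, without GFP library 3, GFP library 4, Thy1.1 library 1 and Thy1.1 library 2. Exons of Fdps and Manf overlap those of other genes.

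Bcl2 was among the lower genes of the highest level. Of 33 tested genes of the BCL2 family and cell death, 3 were higher and 3 lower, 9.09% in each direction beside 8.01% and 6.82% of all tested genes (median -0.05). The higher ones numbered 2 without GFP library 3 and 1 without any of the other 3 marked libraries, and the lower ones 5 without unmarked GFP library 4 or with library totals for scaling. Bcl2, which blocks apoptosis, stood at 127 and 137 CPM with GFP against 670.3 and 837 CPM with Thy1.1 (log2 fold change -2.51 ± 0.18, edgeR adjusted p = 0.000674), and Birc2, an inhibitor of death signalling, at 51.8 and 56.0 CPM with GFP against 96.1 and 108 CPM with Thy1.1 (-0.92 ± 0.13). Ripk3, the kinase of necroptosis, was higher at 224 and 186 CPM with GFP against 76.2 and 78.9 CPM with Thy1.1 (log2 fold change 1.40 ± 0.15, edgeR adjusted p = 0.0021). Mcl1, a relative of Bcl2, was at 588 and 636 CPM with GFP against 775 and 707 CPM with Thy1.1 (edgeR adjusted p = 0.0959), and Bcl2l11 (BIM), which opposes both, at 21.9 and 55.9 CPM with GFP against 45.6 and 64.4 CPM with Thy1.1 (edgeR adjusted p = 0.459). Of 31 tested DNA methylation and chromatin genes, 4 (12.9%) were higher and 3 (9.68%) lower, not far from 8.01% and 6.82% of all tested genes. Tet1, which starts DNA demethylation, was at 2.73 and 3.38 CPM with GFP against 14.7 and 15.7 CPM with Thy1.1 (log2 fold change -2.32 ± 0.28, edgeR adjusted p = 0.00286), the histone methyltransferase Kmt2a at 101 and 113 CPM with GFP against 187 and 198 CPM with Thy1.1 (-0.85 ± 0.10), and the histone chaperone of replication Asf1b at 84.5 and 62.9 CPM with GFP against at most 15.8 CPM with Thy1.1 (log2 fold change 2.36 ± 0.23, edgeR adjusted p = 0.0016). Exons of Bcl2 and Kmt2a overlap gene models.

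Some genes had counts in only 1 of the marked populations. Both GFP libraries were at 0 for 293 tested genes, of which 36 were called, and both Thy1.1 libraries for 103, of which 5 were called. Over all tested genes 14.8% were called, 6.82% as lower and 8.01% as higher with GFP. A gene at 0 in 1 population can be called in 1 direction only, and it passed the filter through other libraries. These counts are therefore not read as a result about such genes. Slc7a10, an amino acid transporter, had 0 counts with GFP and 2066 with Thy1.1. Taking 3 counts over both GFP libraries together as the limit, it was at least 607-fold lower. By the same limit Noxa1, an oxidase activator, was at least 453-fold lower. Selp (P-selectin) was at least 78.4-fold lower by this limit. On the other side stood Pbk, a mitotic kinase, at 13.3 and 7.60 CPM with GFP against 0 and 0 CPM with Thy1.1. Exons of Slc7a10, Noxa1 and Selp overlap those of other genes. The Noxa1 call was lost without GFP library 3 (edgeR adjusted p = 0.0575), Thy1.1 library 1 (0.0817) or Thy1.1 library 2 (0.0771).

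Unmarked cells gave the same reporter contrast in libraries that the marked comparison did not use, except that all 8 libraries shared 1 estimate of the spread. There 23 genes (0.164%) passed the test, 9 higher and 14 lower with GFP, beside 14.8% in marked cells. Of the 1120 genes higher in marked GFP cells, 1051 (93.8%) had a positive log2 fold change in unmarked cells, with a median of 0.32, and of the 954 lower genes 762 (79.9%) had a negative one, with a median of -0.25. The signs were the same for 66.2% of all tested genes. Called in both were 9 higher genes, including Ccr2 with 2.23 (edgeR adjusted p = 0.0148), Lag3 with 1.86 (0.0329), Havcr2 with 2.86 (0.0148) and Myb, a factor of progenitor and effector cells, with 1.65 (0.0481). The 12 lower ones included Thy1 with -1.01 (0.0481), Cd83, which stabilizes MHC class II, with -1.14 (0.0146), Ebi3 with -2.64 (0.0146) and Slc7a10. The mineralocorticoid receptor Nr3c2 was at 1.76 and 1.96 CPM with GFP against 19.0 and 20.8 CPM with Thy1.1 in marked cells and 0.433 and 0.220 CPM with GFP against 9.48 and 6.38 CPM with Thy1.1 in unmarked cells. Without marked Thy1.1 library 2, Myb lost its call in marked cells (edgeR adjusted p = 0.0512). The 23 calls in unmarked cells hinged on single libraries: they numbered 9 without unmarked GFP library 3, 75 without unmarked GFP library 4, 49 and 56 without marked GFP library 3 and 4, and 0 without any 1 of the 4 Thy1.1 libraries. Exons of Myb and Nr3c2 overlap gene models.

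**Figure D5:**
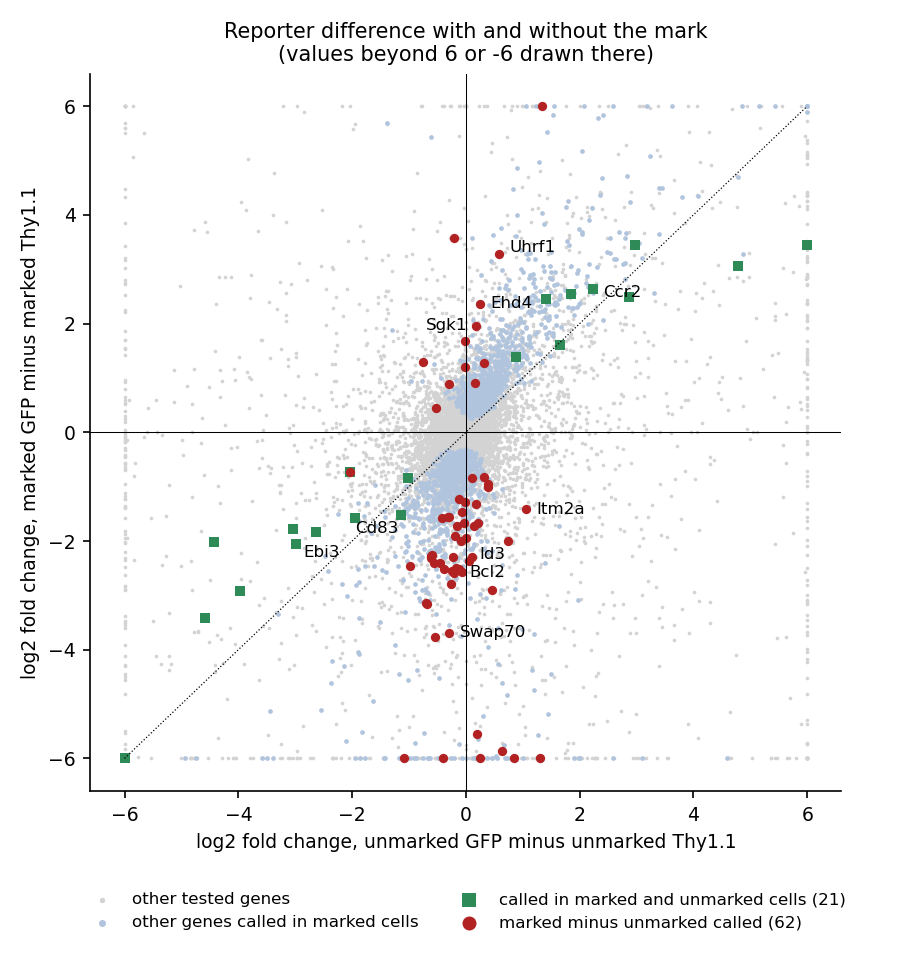
Log2 fold change (GFP minus Thy1.1) in marked cells against that in unmarked cells, 1 point per tested gene, with values beyond 6 or -6 drawn there and a dotted line where both are equal. Green squares are the 21 genes called in both, and red points are the 62 genes whose marked and unmarked differences differed from each other at an adjusted p under 0.05.

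The difference between the marked and the unmarked contrast was itself tested, and 62 genes (0.443%) passed. Of these, 50 were lower and 12 higher in marked GFP than in marked Thy1.1 cells, and 43 had an unmarked log2 fold change under 0.5 in size. Bcl2 was at 805 and 1101 CPM with GFP against 938 and 1144 CPM with Thy1.1 in unmarked cells, close to level, so that the difference of the contrasts was -2.39 ± 0.25 (edgeR adjusted p = 0.0153). Id3 was at 159.9 and 173 CPM with GFP against 166 and 155 CPM with Thy1.1 there (difference -2.42 ± 0.19, edgeR adjusted p = 0.0129). For both genes the marked GFP libraries were the low ones among all 4 populations. Itm2a, a membrane protein of activated T cells, ran in opposite directions, at 31.6 and 25.7 CPM with GFP against 79.1 and 74.0 CPM with Thy1.1 in marked and 229 and 181 CPM with GFP against 99.0 and 99.1 CPM with Thy1.1 in unmarked cells (-2.47 ± 0.22, edgeR adjusted p = 0.0129). Among genes higher in marked GFP cells, Uhrf1 was at 39.0 and 31.8 CPM with GFP against 20.8 and 26.4 CPM with Thy1.1 in unmarked cells (2.70 ± 0.37, edgeR adjusted p = 0.0326). Ehd4, an endosome protein, was at 60.6 and 61.0 CPM with GFP against 11.8 and 11.9 CPM with Thy1.1 in marked and 22.9 and 20.1 CPM with GFP against 16.5 and 19.8 CPM with Thy1.1 in unmarked cells (2.12 ± 0.25, edgeR adjusted p = 0.0175), and the kinase Sgk1 at 70.4 and 93.2 CPM with GFP against 18.5 and 23.4 CPM with Thy1.1 and 31.0 and 28.3 CPM with GFP against 25.7 and 26.7 CPM with Thy1.1 (1.79 ± 0.27, edgeR adjusted p = 0.0478). The number of such genes was 119 without marked GFP library 3, 27 without unmarked GFP library 4, 1 without marked Thy1.1 library 2, and 0 without marked Thy1.1 library 1 or either unmarked Thy1.1 library.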

How the data were processed

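Gene counts were raw whole-number counts as the authors deposited them, 1 column per library. The labels' protocols describe cells sorted into Trizol, SMART-Seq v4 cDNA and paired-end sequencing. The submitters' processing notes name DESeq; aligner, counter and build were not given in the sources used here. GFP columns are numbered 3 and 4 in the table where the labels say 1 and 2, so columns were matched to populations only. Unnamed entries, 0.0215% to 0.0264% of counts, were left out.

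Genes were kept by filterByExpr with a minimum count of 10, scaled by TMM and tested with edgeR 4.0.16 (R 4.3.3, limma 3.58.1) by robust quasi-likelihood, with 1 mean per population over all 8 libraries (4 residual degrees of freedom) and Benjamini-Hochberg adjustment at 0.05. Reporter effects in marked and unmarked cells and their difference were contrasts of this fit. The ± values are standard errors of log2 fold changes, and levels are CPM. The method was tested on simulated data. Alternatives were other scalings and filters, DESeq2 1.42.0, a replicate block, only the marked libraries and each library left out.

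The comparison, gene lists and naming rule were chosen with earlier results of these data known. The rule took the largest and most abundant called genes, and from each list the members of smallest adjusted p and the most abundant ones not called, plus 12 set genes. Chosen after their values were seen were Bcl2l11, Bcl6, Cd226, Cdc6, Cdk4, Cdkn1b, Clspn, Ebi3, Ehd4, Eno2, Entpd1, Foxo1, Gzmb, Havcr2, Ifng, Itga4, Itgam, Itgax, Itgb8, Itm2a, Klf3, Lig1, Lrrc32, Lyz2, Mcm3, Mcm6, Myb, Nfkb1, Nr3c2, Orc2, Pdcd1, Plk1, Pttg1, Rb1, Rela, Rrm2b, S100a6, Selp, Sgk1, Shmt2, Siglech, Tet1, Tigit, Tnfrsf18 and Top2a. Promoters in the RefSeq table were matched to 11154 of 13989 tested genes by symbol, 388 of them by an older one. Results for some genes are not reported here.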

Additional observations from a re-analysis of the deposited data

Results flagged for a closer look

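For the following genes named in the report, the difference between GFP and Thy1.1 cells was not the same in marked and in unmarked cells, by the edgeR test of the difference itself at an adjusted p under 0.05. The value is the log2 fold change (GFP minus Thy1.1) in marked cells minus that in unmarked cells. Lower in marked cells by this measure were Bcl2 (-2.39), Id3 (-2.42), Itm2a (-2.47), Swap70 (-3.40), Gata1 (-3.23), Ldhb (-1.86), Bach2 (-1.50), Satb1 (-1.34), Lef1 (-1.13), Nrp1 (-1.47) and Smc4 (-1.12). Higher were Uhrf1 (2.70), Ehd4 (2.12), Csf1 (2.05), Sgk1 (1.79), Gpr15 (1.70), Itgae (0.98) and Tnfrsf1b (0.75). Cdkn1c (-9.64) and Selp (-11.32) were lower as well, with fitted sizes that depend on the prior count because no GFP library of marked cells held a count. Except for Id3 without marked Thy1.1 library 2 (edgeR adjusted p = 0.0479), none of these genes passed the test when either marked or either unmarked Thy1.1 library was left out.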

How the results depend on the processing

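Marked GFP cells had 1120 higher and 954 lower genes, and DESeq2 called 1619 lower. The 62 genes whose reporter difference differed between marked and unmarked cells became 109 without a filter, 133 with the stricter filter and 596 with DESeq2. The 23 genes called in unmarked cells became 98, 122 and 628 under these settings. Leaving out 1 library at a time gave 199 to 1144 higher and 282 to 1112 lower genes in marked cells, 0 to 119 genes for the difference and 0 to 75 in unmarked cells.

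With a replicate block by the parity of the column numbers, 1160 genes were higher, 1054 lower, 63 differed between the contrasts and 39 were called in unmarked cells. The numbers were not taken to pair the samples. Differences between the odd- and the even-numbered library correlated between populations over all tested genes with r of only 0.0295 to 0.0472. Such an r weighs genes of few counts like all others, so it cannot decide whether libraries are paired. Interferon-stimulated genes did follow the numbers, with 34 or 35 of 35 higher in the even-numbered library of each population, and with the block 1 of them was higher and 3 lower in marked cells, against 0 and 0 without it. With only the 4 marked libraries, 888 were higher and 658 lower. Of the 2074 calls, 2001 were also made with RLE scaling, 1840 with library totals, 2073 by DESeq2 and 1441 with the 4 marked libraries.

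No named gene that was called changed direction under any setting run. Among those not called, Ccnd2 did so under library totals, the stricter filter and several omitted libraries, and Bcl6, Cd3e, Cdk4, Entpd1, Gata3, Ifng, Il2ra and Rela did so only without single marked libraries. With 2 libraries per population, single libraries set the counts, and genes near the limit of 3 counts have fold sizes that depend on the prior count.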
